A study of Mus musculus with 20 samples.

Results

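The miR-181 family was followed along the crypt-villus axis of the mouse ileum through the 4 probes that the array names mmu-miR-181a, mmu-miR-181b, mmu-miR-181c and mmu-miR-181d (written without the species prefix from here on), of 655 probes on the array. The rule takes the probes by name, as those for the main strands of the family, and the probes for 2 minor strands of the same hairpins, miR-181a-1* and miR-181a-2*, were read beside them. All samples were ileum epithelial cells of wild type C57BL/6J male mice aged 4 months, separated by the Weiser method into 5 fractions that came off the tissue in turn, V0 (villus tip), V1, V2, V3 and C1 (crypt). Each fraction was measured on 4 Illumina miRNA bead arrays, 20 in all, and the replicate numbers 1 to 4 used here only name the arrays. The submitters describe 4 mice, but no label ties an array to a mouse, so the p-values measure the spread between arrays. The fractions were set by the order of release and were not sorted by cell type.

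A miRNA is cut from a hairpin RNA, and 1 strand of the hairpin is loaded into an Argonaute protein, where bases 2 to 8 of the strand, the seed, pair with target mRNAs and lower their translation and stability. The other strand, marked by an asterisk in the older naming used on this array, is usually degraded. The miR-181 family is best known from blood cell development, where mouse miR-181a sets the sensitivity of the T cell receptor in developing thymocytes. The ileal epithelium renews from dividing cells in the crypts, which differentiate as they move up the villus and are shed at its tip.

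The mature sequences are shown because the members share 1 seed and differ by few bases elsewhere. They are written 5′ to 3′ from RefSeq, build GRCm38.p6, with the seed in capitals, and all 6 probe names found a match there.
miR-181a: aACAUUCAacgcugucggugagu
miR-181b: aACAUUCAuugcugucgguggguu
miR-181c: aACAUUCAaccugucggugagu
miR-181d: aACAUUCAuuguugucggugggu
miR-181a-1*: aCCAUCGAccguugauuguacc
miR-181a-2*: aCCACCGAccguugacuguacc

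The seed ACAUUCA stood in 4 of the 1679 mature miRNA names of that table, and these were the 4 members. Counted from 1 at the 5′ end with the base of miR-181a first, miR-181b differed by A9U, C10U and A21G and by 1 more base at its 3′ end. miR-181c differed from miR-181a by a single edit, sharing the first 10 and the last 12 bases with 1 base fewer in between. miR-181d carried C12U against miR-181b, with the base of miR-181b first, and was 1 base shorter. The minor strands carried seeds of their own. The sequences of the array probes were not used here, and how far the probes tell these members apart was not tested.

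RefSeq places the main strands at 3 pairs of neighbouring hairpins. miR-181a is encoded at chr1:137966468-137966490 and at chr2:38852741-38852763, both on the plus strand, and the 2 copies give the same mature sequence. miR-181b is encoded beside each copy, at chr1:137966650-137966673 and chr2:38853845-38853868, with 97 bases between the hairpins on chromosome 1 and 1019 on chromosome 2. The chromosome 2 pair lies within the spans of Nr6a1, a nuclear receptor gene, and its antisense gene Nr6a1os, while no gene of the table overlapped the chromosome 1 pair. miR-181c, at chr8:84178924-84178945, and miR-181d, at chr8:84178759-84178781, are both on the minus strand with 85 bases between their hairpins, and the hairpin of miR-23a begins 29556 bases from that of miR-181c. The array annotation gives chromosomes 1 and 2 for the miR-181a and miR-181b probes, so neither signal separates the 2 copies. How much each copy adds was not measured.

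The minor strands separate the copies of miR-181a, which is why the 2 hairpins are shown, with the main strand first and the minor strand second in capitals. The hairpin of Mir181a-1 lies at chr1:137966455-137966541 and that of Mir181a-2 at chr2:38852735-38852810.
Mir181a-1: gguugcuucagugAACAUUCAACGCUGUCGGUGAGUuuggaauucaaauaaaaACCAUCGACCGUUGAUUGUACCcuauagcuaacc
Mir181a-2: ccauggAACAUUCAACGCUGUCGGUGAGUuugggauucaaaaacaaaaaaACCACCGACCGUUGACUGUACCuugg

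The arrays differed in how many probes they detected, and the ranges differed between fractions but overlapped. Why the numbers differed was not tested. A probe was called detected on an array when its detection p, given by the authors' software, was at most 0.01. Before normalization 285 to 372 probes were detected on the C1 arrays, 258 to 477 in V3, 344 to 471 in V2, 388 to 481 in V1 and 326 to 466 in V0, with the lowest numbers on V3 replicate 4 and C1 replicate 4. The number of detected probes below is this count before normalization. Detection of single probes uses the detection p given with the normalized values, by which V3 replicate 4 had 367 probes and C1 replicate 4 had 306. The arrays lay on 4 slides, as read from the number that opens each array title, since no label names a slide. Slide 1 held V0, V1 and V2 arrays, slide 3 held V3 and C1 arrays, slide 4 held C1 replicate 4 alone, and slide 2 held arrays of all 5 fractions. All levels below are the log2 of the quantile-normalized signal, in which a step of 1 is a 2-fold difference, and levels of different probes are not set against each other because probes differ in brightness. The epithelial miRNAs used to check the tissue (miR-192, miR-194, miR-215 and the miR-200 family) were all detected on every V0, V2 and V3 array, and 5 of 8 on every C1 array.

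miR-181a and miR-181b were detected nearly throughout and averaged highest at the villus tip, but neither passed a test between fractions. miR-181c and miR-181d were near the limit of detection, which was between 9.12 and 9.97 on single arrays as the lowest signal of a detected probe. miR-181a was detected on 20 of 20 arrays and miR-181b on 19 of 20, miR-181c on 13 and miR-181d on 12. Over the 20 arrays the signal spanned 32.0-fold for miR-181a, 26.2-fold for miR-181b, 6.50-fold for miR-181c and 7.57-fold for miR-181d.

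**Figure D1:**
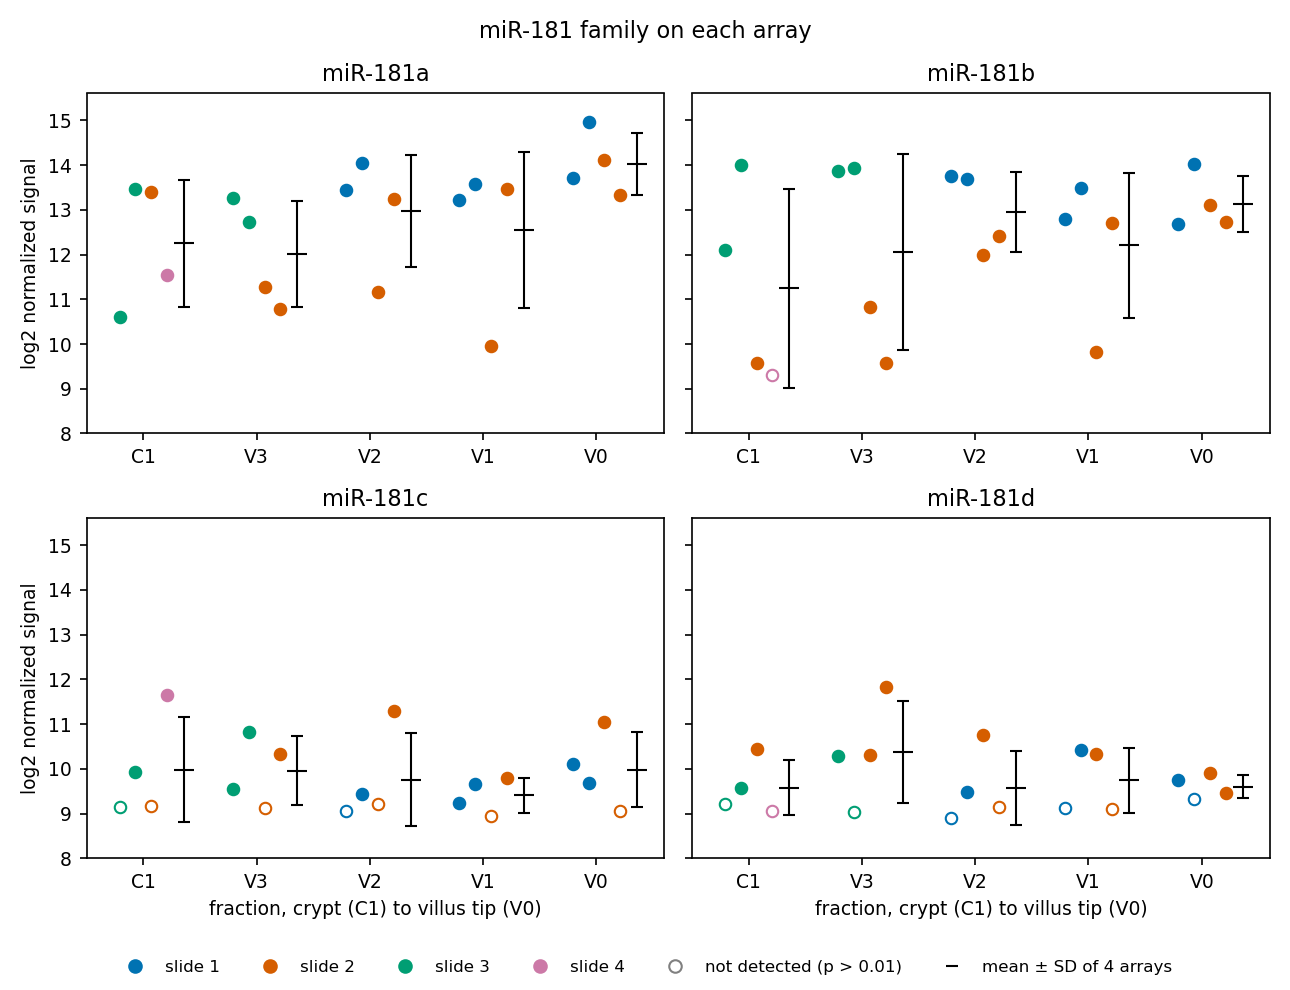
Log2 normalized signal of the 4 family members on each array, by fraction from crypt (C1) to villus tip (V0). Points are arrays coloured by slide, open points were not detected, and bars give the mean and SD of 4 arrays. The V0 points of miR-181a and miR-181b lie close together at the top, while the C1, V3, V2 and V1 points spread downward, and most miR-181c and miR-181d points lie between 9 and 11.

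On the 4 C1 arrays miR-181a had a log2 signal of 10.61, 13.47, 13.40 and 11.54 (mean 12.25 ± 1.42, SD, n = 4). On the V0 arrays it had 13.71, 14.95, 14.12 and 13.34 (mean 14.03 ± 0.69, SD, n = 4). The V0 arrays were thus all high, whereas C1 was split into a pair that reached the lower V0 values and a pair well below, so the fractions overlapped. The log2 difference of V0 from C1 was 1.78 (SE 0.88, 95% interval -0.09 to 3.64, limma unadjusted p = 0.0606, adjusted p = 0.277). miR-181a is among the miRNAs charted from these same arrays for a higher signal in the villus than in the crypt, so the direction is not independent evidence. The authors report the charted miRNAs as significantly changed. Their results describe a paired non-parametric comparison with a fold and a false discovery rate limit, while their methods name the Illumina custom error model. Neither test was repeated here, and the limma fit is unpaired. In such bulk fractions a change in the share of a cell type and a change in RNA per cell cannot be told apart.

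In the fractions between, miR-181a had 13.27, 12.72, 11.28 and 10.77 in V3 (mean 12.01 ± 1.18, SD, n = 4). In V2 it had 13.44, 14.05, 11.16 and 13.24 (mean 12.97 ± 1.26, SD, n = 4), and in V1 13.21, 13.59, 9.95 and 13.47 (mean 12.55 ± 1.74, SD, n = 4). V1 and V2 thus each held 3 arrays near the V0 values and 1 far below, replicate 3 in both, and V3 was high on its slide 3 arrays and low on its slide 2 arrays. From the highest mean the order was V0, V2, V1, C1 and V3, and no neighbours in it differed beyond their spread (limma adjusted p = 0.998 for V0 against V2, 0.9998 for V1 against V2, 0.824 for V1 against C1 and 0.936 for V3 against C1). V0 and V3, at the top and the bottom of that order, did not overlap, with a log2 difference of 2.02 (SE 0.88, limma unadjusted p = 0.0356, adjusted p = 0.548). Arrays higher throughout in V0 than in V3 were found for 12 of 321 probes tested, 3.74%, and this pair of fractions was added after the data were seen.

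miR-181b, from the same 2 clusters, had 12.10, 14.00, 9.57 and 9.31 on the C1 arrays (mean 11.25 ± 2.23, SD, n = 4), where it was not detected on replicate 4. In V0 it had 12.69, 14.02, 13.10 and 12.72 (mean 13.13 ± 0.62, SD, n = 4). C1 held the lowest arrays but also 1 close to the highest V0 array, so the fractions overlapped. The log2 difference was 1.89 (SE 1.11, 95% interval -0.47 to 4.24, limma unadjusted p = 0.109, adjusted p = 0.306).

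miR-181b had 13.88, 13.93, 10.82 and 9.59 in V3 (mean 12.05 ± 2.20, SD, n = 4). In V2 it had 13.76, 13.68, 11.99 and 12.41 (mean 12.96 ± 0.89, SD, n = 4), and in V1 12.80, 13.49, 9.83 and 12.70 (mean 12.21 ± 1.62, SD, n = 4). V1 replicate 3 was again the lowest of its fraction, and V3 was again high on slide 3 and low on slide 2, by more than 3 log2 units between the nearest arrays of these slides. The order of means was V0, V2, V1, V3 and C1, with limma adjusted p = 0.998 for V0 against V2, 0.9998 for V1 against V2, 0.978 for V1 against V3 and 0.805 for V3 against C1. The SD within fractions, pooled over the 5, was 1.65 for miR-181b and 1.30 for miR-181a against a median of 1.12 over the 384 probes detected throughout at least 1 fraction, and 16.1% of these had a larger SD than miR-181b.

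miR-181c had 9.15, 9.94, 9.16 and 11.65 on the C1 arrays (mean 9.98 ± 1.17, SD, n = 4), of which replicates 1 and 3 did not detect it. In V0 it had 10.11, 9.68, 11.05 and 9.05 (mean 9.98 ± 0.84, SD, n = 4), the last not detected. The 2 fractions covered much the same range, and the log2 difference was 0.00 (SE 0.61, 95% interval -1.28 to 1.28). In V3, V2 and V1 the means were 9.96 ± 0.77, 9.76 ± 1.04 and 9.41 ± 0.39 (SD, n = 4 each), with 3, 2 and 3 arrays detected.

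miR-181d, its neighbour on chromosome 8, had 9.22, 9.58, 10.44 and 9.06 on the C1 arrays (mean 9.58 ± 0.61, SD, n = 4), with replicates 1 and 4 not detected. In V0 it had 9.74, 9.32, 9.90 and 9.46 (mean 9.60 ± 0.26, SD, n = 4), with replicate 2 not detected. All V0 values lay inside the C1 range, and the log2 difference was 0.03 (SE 0.53, 95% interval -1.09 to 1.15). Its highest mean was in V3, at 10.37 ± 1.14 (SD, n = 4), where the arrays had 10.29, 9.04, 10.32 and 11.82. The highest of them, replicate 4, was the array with the fewest detected probes before normalization. V2 and V1 had 9.57 ± 0.83 and 9.75 ± 0.73 (SD, n = 4 each), with 2 arrays detected in each. No fraction detected miR-181c or miR-181d on all 4 arrays, so neither passed the filter for the limma tests, and a change in them of the size of their intervals was not detectable here.

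Of the 4 members, 0 passed in V0 against C1, where 2 members were tested and a pass meant a 2-fold or greater difference with a limma adjusted p no higher than 0.05. Over all probes 0.623% of 321 passed, 17.1% had an unadjusted p under 0.05, as 0 members had, and the median log2 difference was -0.04. In the remaining comparisons with C1, 0 members passed or had an unadjusted p under 0.05, beside 0.578% of 346 probes passing in V1, 0.645% of 310 in V2 and 0.361% of 277 in V3. The share of probes with an unadjusted p under 0.05 was 28% in V1, 22.6% in V2 and 8.66% in V3. The differences from C1 in V1, V2 and V3 were 0.30, 0.72 and -0.24 for miR-181a (SE 0.88 each) and 0.96, 1.71 and 0.80 for miR-181b (SE 1.11 each). These comparisons share the C1 arrays.

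**Figure D2:**
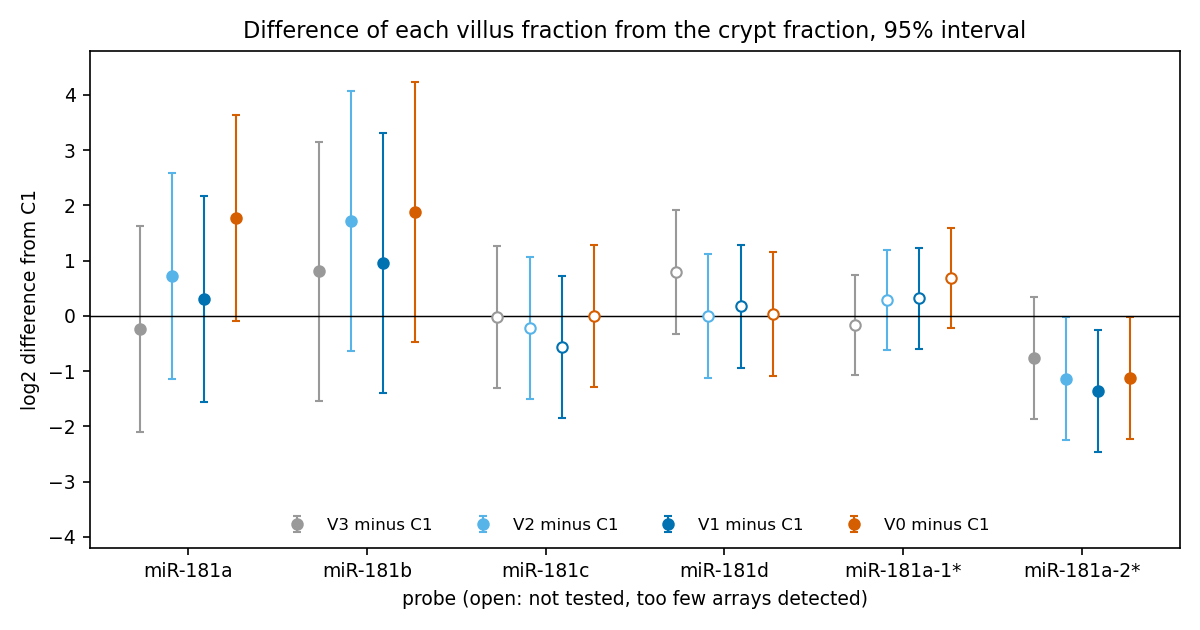
Log2 difference of each villus fraction from the crypt fraction C1 for the 4 members and the 2 minor strands, with 95% intervals from limma. Open points were not tested because too few arrays detected the probe. The intervals of miR-181a and miR-181b include 0 throughout, and those of miR-181a-2* on this normalized scale lie below 0 in V0, V1 and V2.

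Between adjacent villus fractions, 0 members passed by limma in V0 against V1, V1 against V2 or V2 against V3, nor did any probe (0% each), and 0 members had an unadjusted p under 0.05 where 3.65%, 0.292% and 0.993% of the probes had. The V0 signal exceeded that of V1 by 1.48 for miR-181a (SE 0.88) and 0.93 for miR-181b (SE 1.11). In V0 against V2, V0 against V3 and V1 against V3 also 0 members and 0% of the probes passed, with an unadjusted p under 0.05 for 5.74%, 8.72% and 2.94% of the probes and, of the members, only for miR-181a in V0 against V3. A limma trend along the axis, with C1 at step 0 and V0 at step 4, gave miR-181a a slope of 0.41 per step (SE 0.19, unadjusted p = 0.0468, adjusted p = 0.176) and miR-181b one of 0.39 (SE 0.24, adjusted p = 0.248). The slope of 0 members passed, beside 0.521% of 384 probes, and 26.6% of the probes had an unadjusted p under 0.05. The limma test of any difference among the 5 fractions gave adjusted p = 0.605 for miR-181a and 0.721 for miR-181b, so 0 members passed beside 0.26% of the probes, and 0 members had an unadjusted p under 0.05 beside 9.11%.

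The slides and the number of detected probes moved with these values. On slide 2 alone, which held 2 arrays of V0 and 1 of C1, the V0 minus C1 difference of miR-181a was 0.33 and that of miR-181b 3.34. With slide as a fixed block the values were 1.32 and 3.01 (limma adjusted p = 0.473 and 0.0750), and in a separate fit with the number of detected probes in place of slide they were 0.79 and 0.70. Leaving out any single array kept them between 1.23 and 2.18 for miR-181a and between 1.24 and 2.80 for miR-181b. Over the 20 arrays, the Pearson correlation with the number of detected probes was 0.55 for miR-181a, 0.58 for miR-181b, -0.16 for miR-181c and -0.40 for miR-181d. Their part in the differences was not tested.

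miR-181a and miR-181b varied together from array to array, with a Pearson r of 0.69 (Spearman rho 0.61) over the 20 arrays and 0.66 after subtracting the mean of each fraction. The other pairs of members had r between -0.46 and 0.12, with -0.18 for the neighbours miR-181c and miR-181d. The probes are read on the same arrays and share their normalization and their differences in detection, so the values are a description. miR-181b was not detected on C1 replicate 4 and was close to the limit of detection on C1 replicate 3, so the C1 values that follow are partly set by that limit. The difference between miR-181a and miR-181b within an array had an SD of 0.19 over the V0 arrays, 0.31 over V1, 0.73 over V2, 1.07 over V3 and 2.45 over C1 (n = 4 each). Their balance was thus nearly fixed among V0 arrays, while relative to the V0 mean it stood at -2.39 and -1.43 on C1 replicates 1 and 2 and at 2.93 and 1.33 on C1 replicates 3 and 4. This ordering of the SDs was noticed in the values and has no test.

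**Figure D3:**
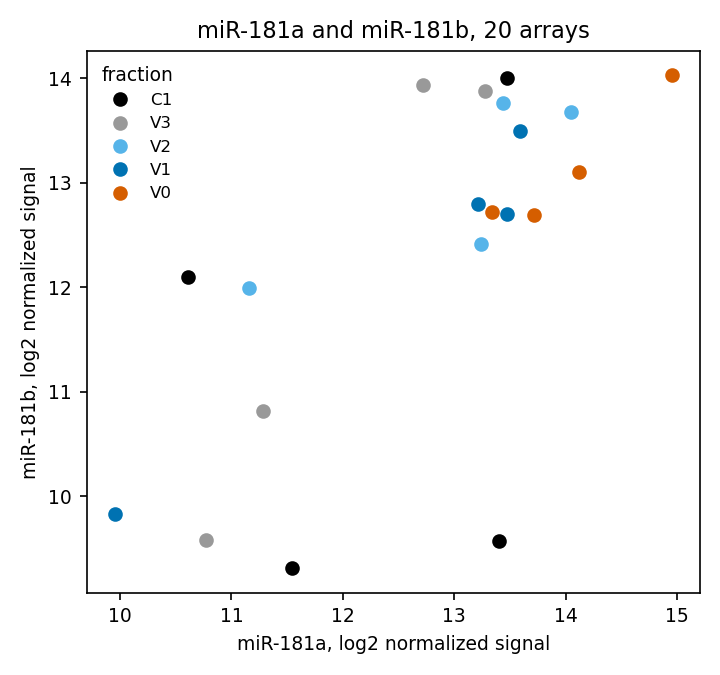
Log2 normalized signal of miR-181b against that of miR-181a on the 20 arrays, coloured by fraction. The V0 and V1 points follow a common line, and the C1 points lie on both sides of it.

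Whether the members changed unequally between V0 and C1 was asked of the 6 pairs, by a two-sided exact permutation test on the within-array differences, whose smallest possible p is 0.0286. The excess of miR-181a over miR-181d was larger in V0 than in C1 by 1.75 on the log2 scale (exact p = 0.0571, adjusted p = 0.343) and that over miR-181c by 1.78 (exact p = 0.171, adjusted p = 0.400). That of miR-181b was larger by 1.89 over miR-181c (exact p = 0.314) and 1.86 over miR-181d (exact p = 0.200). The balance of miR-181a and miR-181b differed by -0.11 (exact p = 0.914) and that of miR-181c and miR-181d by -0.03 (exact p = 1). Of the 6 pairs 0 passed, also at an unadjusted p under 0.05. After adjustment a pair could have passed only if most of the 6 reached the smallest possible p together, so the adjusted result says little. miR-181c and miR-181d enter these differences also on arrays that did not detect them, so the differences over them lie close to the changes of miR-181a and miR-181b themselves (1.78 and 1.89).

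The minor strands of the miR-181a copies were both measured. miR-181a-1*, from chromosome 1, was detected on 9 of 20 arrays and was not tested. It had 8.87, 8.99, 9.98 and 8.70 on the C1 arrays, of which only replicate 3 detected it, and 10.70, 9.59, 9.94 and 9.05 in V0, where replicates 1 to 3 did. Its V0 arrays lay mostly above C1 but overlapped them, and the log2 difference was 0.68 (SE 0.43). Its r with miR-181a was 0.69 over the 20 arrays.

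miR-181a-2*, from chromosome 2, was detected on all 20 arrays and averaged highest in the crypt after normalization, though not before it. It had 11.08, 11.10, 10.89 and 11.97 in C1 (mean 11.26 ± 0.48, SD, n = 4). In V1 it had 9.95, 9.47, 10.51 and 9.70 (mean 9.91 ± 0.45), and in V2 10.23, 10.04, 10.74 and 9.50 (mean 10.13 ± 0.51, SD, n = 4 each). Each V1 and each V2 array was below every C1 array, as held for 17.1% of the probes tested in V1 and 12.6% in V2. The log2 differences from C1 were -1.35 in V1 (SE 0.52, limma unadjusted p = 0.0193, adjusted p = 0.159) and -1.13 in V2 (SE 0.52, adjusted p = 0.214), so neither passed. In V0 it had 11.09, 9.90, 9.67 and 9.87 (mean 10.13 ± 0.65, SD, n = 4) and in V3 9.69, 9.54, 10.33 and 12.41 (mean 10.49 ± 1.33, SD, n = 4). V0 replicate 1 reached the C1 values, V3 replicate 4 exceeded them all, and the log2 differences were -1.13 in V0 (adjusted p = 0.277) and -0.77 in V3 (adjusted p = 0.551, both by limma). Without V3 replicate 4 in the fit, the limma adjusted p was 0.0372 in V1 and 0.0458 in V3 (log2 difference -1.41), and without V0 replicate 1 that of its trend was 0.0451 (slope -0.36 per step, against -0.28 and adjusted p = 0.166 with all arrays). These gains were shared by other probes, since without V3 replicate 4 the share passing was 8.09% in V1 and 7.89% in V3, and without V0 replicate 1 it was 16.9% for the trend.

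**Figure D4:**
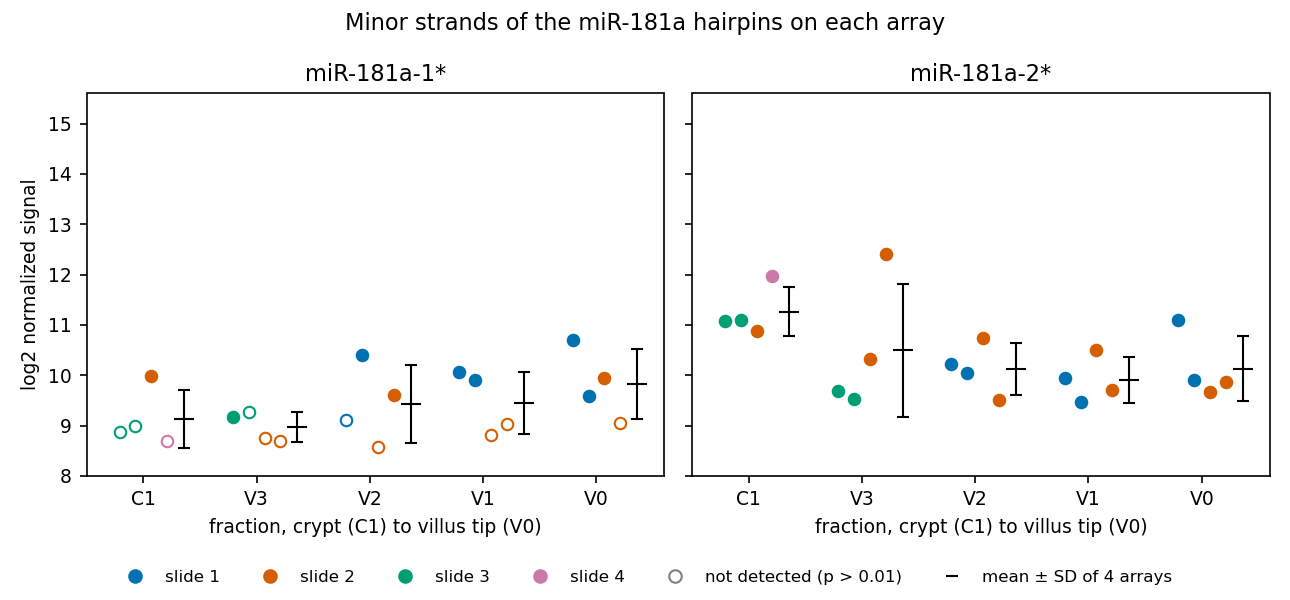
Log2 normalized signal of the minor strands miR-181a-1* and miR-181a-2* on each array, by fraction, with colours, open points and bars (mean and SD of 4 arrays) as for the main strands. After normalization miR-181a-2* is higher on all C1 arrays than on any V1 or V2 array.

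The direction of miR-181a-2* depended on whether arrays were scaled at all. Before normalization its mean log2 signal was 9.70 ± 0.56 in C1 and 10.24 ± 0.26 in V0 (SD, n = 4 each), and without normalization the V0 minus C1 difference was 0.54, on a scale where the median of all probes tested moved to 0.95 and thus lay above it. With arrays centred on their median it was -0.50 and with neqc, which corrects the background before quantile normalization, -1.72. The normalized fit with the number of detected probes added gave -0.18. Over the 20 arrays its normalized signal had a Pearson r of -0.93 with the number of detected probes (-0.90 within fractions), the lowest value among the 422 probes detected on at least 10 arrays, whose median was -0.05. Before normalization that r was 0.60. Its r with the main strand miR-181a was -0.55. Whether differences in detection between arrays played a part in the crypt to villus difference of this strand was not tested.

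**Figure D5:**
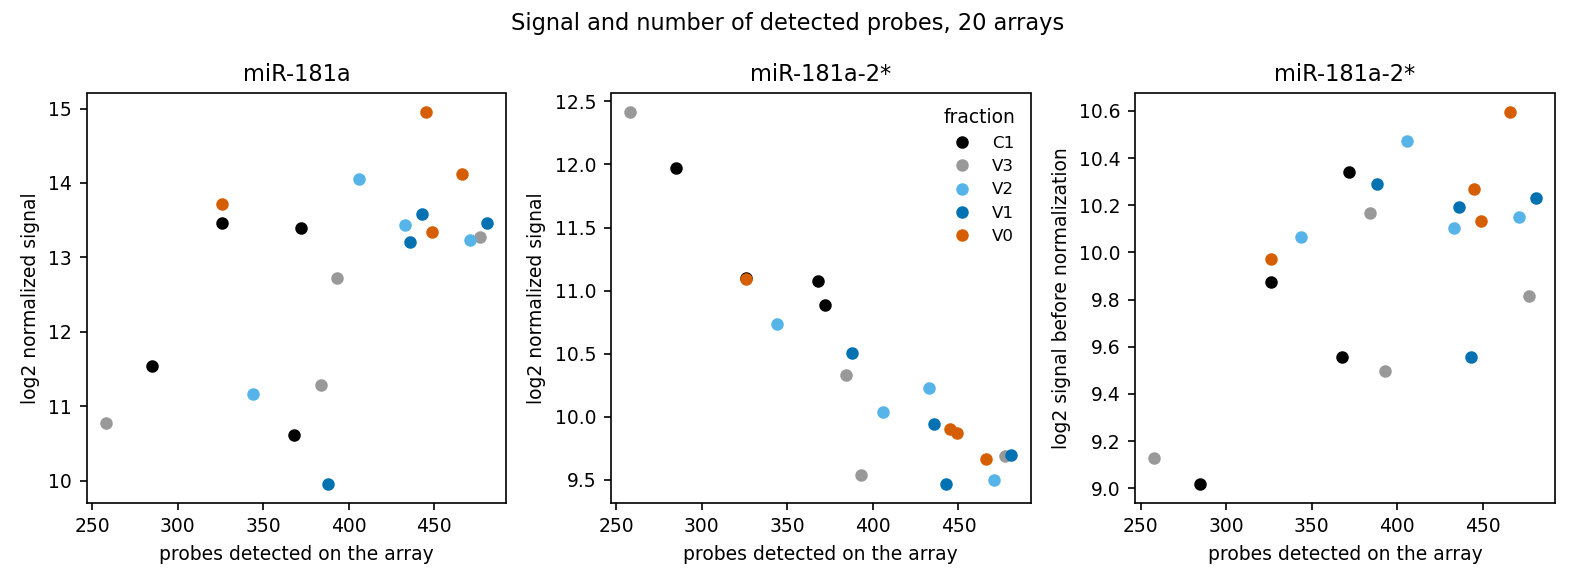
Signal on each of the 20 arrays against the number of probes detected on that array, coloured by fraction, for miR-181a and miR-181a-2* after normalization and miR-181a-2* before it. The normalized miR-181a-2* signal falls steadily with more detected probes (r = -0.93), and before normalization the relation runs the other way (r = 0.60).

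The probes most like each member over the 20 arrays, among 418 detected on at least 10 arrays with the members left out, are given by Pearson r as a description. They were miR-218 (0.82), miR-222 (0.73) and miR-24 (0.70) for miR-181a, and miR-361 (0.85), miR-674* (0.83) and miR-98 (0.83) for miR-181b. For miR-181c they were miR-210 (0.71), miR-29c* (0.70) and miR-196a (0.62), and for miR-181d miR-92a* (0.82), miR-615-5p (0.79) and miR-467f (0.74). No probe came up for more than 1 member. The probes nearest to miR-181a and miR-181b had r between 0.61 and 0.76 with the number of detected probes, and those nearest to miR-181d between -0.57 and -0.34. For those nearest to miR-181c it was -0.52 (miR-210), 0.05 (miR-29c*) and -0.20 (miR-196a).

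miRNAs of other cell types were read on the same arrays because miR-181a is also abundant in lymphocytes. Of the 7 leukocyte miRNAs (miR-142-3p, miR-142-5p, miR-150, miR-155, miR-223, miR-146a and miR-146b), 6 averaged higher in V0 than in C1 and miR-146b averaged lower (log2 difference -0.68). The median log2 difference from C1 was 1.24 over the 7, and 0 of 6 tested passed. Their mean level per array was 10.37 to 13.35 in C1 and 12.17 to 13.78 in V0. The 8 muscle and stroma miRNAs (median 0.82, mean level per array 11.60 to 12.48 in C1 and 12.29 to 13.57 in V0, 0 of 7 tested passed), the 2 endothelial (median 0.998, 10.93 to 12.75 and 11.61 to 14.21, 0 of 2) and the 3 erythroid (median 1.89, 9.48 to 10.59 and 10.76 to 11.91, 0 of 2) also had medians above 0. Of their defining members, miR-142-3p, miR-126-3p, miR-145 and miR-451 were detected on all C1 and V0 arrays, miR-1 was detected on 0 V0 arrays and miR-144 on 0 arrays of either fraction. The 8 epithelial miRNAs had a median of 0.98 (12.29 to 14.77 and 14.85 to 15.20, 0 of 8). Of all 321 probes tested in V0 against C1, 0.623% passed and 155 averaged higher in V0, with a median log2 difference of -0.04. The part of other cell types in the miR-181a and miR-181b levels was not tested.

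Of the 5 probes for strands of the miR-23a, miR-27a and miR-24-2 hairpins, the nearest miRNA neighbours of miR-181c and miR-181d considered here, 1 passed, beside 0.623% of the 321 probes tested. Their median V0 minus C1 log2 difference was 1.36. Whether hairpins elsewhere add to the signal of these probes was not examined. The passing probe was miR-24-2*, the minor strand of its hairpin, which was detected on all 4 V0 arrays (mean 11.07 ± 0.58, SD, n = 4) and on 0 of 4 C1 arrays. Against its C1 values, none of them detected, the log2 difference was 2.33 (limma adjusted p = 0.00587). The probe entered the test through its V0 arrays alone, and like miR-181a it is among those charted from these arrays, so its pass is not independent evidence. With the mean of the lowest detected signals of the C1 arrays taken for C1, the V0 mean was at least 2.75-fold that of C1. This bound has no interval. miR-181c and miR-181d, on the same chromosome, differed between these fractions by 0.00 and 0.03. These 2 values were not stable, and over the reruns they ranged from -0.36 to 1.18 and from -0.84 to 0.90.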

How the data were processed

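The authors read the bead chips on an iScan and summarised them in Genome Studio (version not given in the sources used here) as an average signal intensity per probe. They deposited this intensity both unnormalized and quantile-normalized over all arrays, background not subtracted, with a detection p-value for every probe on every array. The series value table repeats the normalized values (largest difference 0).

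Here log2 of the normalized intensity of all 655 probes entered 1 limma fit (limma 3.58.1, R 4.3.3, eBayes) with a mean for each fraction. Benjamini-Hochberg adjustment covered probes detected (p no higher than 0.01) on every array of either fraction, or of any fraction for the trend and the test of any difference. The fit was tested on simulated data with independent noise on each array and every probe detected. Those data held no slides, shared mice or detection limit, so the simulation does not speak to these features. Exact tests used scipy 1.17.1. Named were all members, minor strands, the 3 probes most like each member, and passing members of the lists. Members and lists were chosen with earlier results of these data known. Normalization, background, detection filter, slide, covariates, tests and arrays were varied 1 at a time. The setting without V3 replicate 4 and C1 replicate 4 together, and the pairs V0 against V2, V0 against V3 and V1 against V3, were added after the data were seen. The number of arrays, 4 per fraction, limits the precision. Sequences are from RefSeq, GRCm38.p6. RT-qPCR, cell line and tumour data were not used here.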

Additional observations from a re-analysis of the deposited data

Results flagged for a closer look

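Single arrays were compared with the others of their fraction for the 4 members and 2 minor strands, 30 groups of 4 in all, and 2 stood apart, where chance gives about 5% of groups. miR-181a had a log2 normalized signal of 9.95 on V1 replicate 3, against 13.21 to 13.59 on the other V1 arrays. miR-181a-2* had 11.09 on V0 replicate 1, against 9.67 to 9.90 on the other V0 arrays. V0 replicate 1 had the fewest detected probes of its fraction (326), and so had V1 replicate 3 (388). Why these arrays differ was not tested.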

How the results depend on the processing

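Under each of 293 reruns of the 9 comparisons, 0 members passed. Over all probes, 123 of these reruns passed none, every exact rank-sum rerun among them, and the highest share passing was 16.9%. With 4 against 4 arrays the smallest possible p of the exact rank-sum test is 0.0286. After adjustment a probe could pass it only if most of the probes tested reached that value together, so the rank-sum reruns decide nothing. The smallest adjusted p for V0 against C1 was 0.174 for miR-181a (without C1 replicate 3) and 0.0750 for miR-181b (slide as a fixed block), by limma, and the log2 differences ranged from 0.33 to 2.77 and from 0.70 to 3.34. Some differences changed sign, none of them past the threshold before, and the cause was not tested. With no normalization miR-181a-2* gave 0.54 in V0, 0.37 in V1 and 0.50 in V2 against C1 and a trend of 0.15 per step, miR-181a gave 0.041 in V3 against C1, and the change in balance was 0.15 for miR-181a and miR-181b and 0.28 for miR-181c and miR-181d. On slide 2 alone miR-181a was -1.69 in V1 and -1.20 in V2 against C1, and miR-181a-2* was 0.49 in V3. With slide as a fixed block, where C1 replicate 4 carries no weight, miR-181a in V1 was -0.15. In the fit with the number of detected probes miR-181a was -0.87 in V1 and -0.17 in V2, and miR-181b -0.45 in V1.

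Leaving out 1 array at a time, miR-181a ranged from -0.25 to 1.17 in V1 against C1, -0.79 to 0.17 in V3 against C1 and -1.02 to 0.45 in V1 against V2. miR-181b ranged from -1.18 to 0.038 in V1 against V2, the balance of miR-181a and miR-181b from -0.94 to 0.83 and that of miR-181c and miR-181d from -0.59 to 0.70. No paired analysis was possible because no label ties arrays to a mouse. V0 and C1 arrays meet only on slide 2, so for the others slide and fraction cannot be told apart. miR-181c and miR-181d near the detection limit bound only large changes.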
